A study of Mus musculus with 9 samples.

Results

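The genes that surround Cebpa on mouse chromosome 7 were described in splenic monocytes that have or lack an enhancer of Cebpa. Members were all genes of the deposited tables on chromosome 7 whose lowest coordinate lies within 1 Mb of the start of Cebpa at chr7:35119293-35121928 (GRCm38), without Cebpa itself, Cebpg and Gpi1. The rule used position alone and no measured value. It gave 57 of the 55487 genes of the tables. Of these, 32 lie at lower coordinates, the 5′ side of Cebpa, which is read from the plus strand, and 25 lie at higher coordinates. They comprise 22 protein-coding genes, 10 lincRNAs, 7 antisense RNAs, 7 pseudogenes and 11 of other types.

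The libraries were made from untreated cells sorted from spleens of C57BL/6 mice, 40000 to 50000 cells each, in 3 groups of 3. WT Ly6Chi monocytes are the classical subset of wild-type mice, and WT Ly6Clo monocytes are their nonclassical subset. KO Ly6Clo monocytes came from mice whose genotype is Cebpa +37-/-, that is, homozygous for loss of the +37 element of Cebpa. Ly6Chi monocytes of such mice were not analysed here, and no source used here gives the bounds of the deletion or the age of the mice. The labels do not say whether replicates were separate mice, so the p-values reflect how far libraries of a group differ, a spread that can be purely technical.

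C/EBP-alpha, the product of Cebpa, is a transcription factor that drives granulocyte and monocyte development and binds DNA with other C/EBP proteins. Its transcription depends on enhancers, and the +37 element is a myeloid enhancer named for its distance downstream of the Cebpa start, on the side of higher coordinates. An enhancer acts through contact with promoters and can in principle reach more than 1 gene of its neighbourhood, so genes on both sides of a deleted enhancer are commonly examined beside its main target.

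Between 48141590 and 173703361 reads were counted in genes per library, and WT Ly6Clo replicate 2 and KO Ly6Clo replicate 2 were the deepest. Levels are CPM, counts per 1000000 counts of the TMM-scaled library size, and 3 counts equal 0.0199 to 0.0626 CPM. The summed level of 7 classical monocyte markers was 7040 to 8110 CPM in WT Ly6Chi, 141 to 153 in WT Ly6Clo and 126 to 214 in KO Ly6Clo libraries, and that of 8 nonclassical markers was 1290 to 6020, 11200 to 20300 and 7980 to 13900 CPM. By these sums, both subsets carried the markers of their labels. Each nonclassical marker had a higher mean in both Ly6Clo groups than in WT Ly6Chi. Nr4a1 led that sum and varied within groups, at 6376 ± 4399 CPM in WT Ly6Clo (SD, n = 3). Cx3cr1 differed least, at 355, 507 and 382 CPM in WT Ly6Chi, WT Ly6Clo and KO Ly6Clo. No marker of any list was at 0 in all libraries of a group, and summed erythroid markers spread from 1.23 to 7520 CPM within KO Ly6Clo. KO Ly6Clo replicate 1 stood apart in low genes: of the genes with a mean under 0.1 CPM in the other 8 libraries, 3.52% reached at least 0.3 CPM in it, against at most 1.75% for the same count in any other library. In these bulk samples, fewer cells of a type and less RNA per cell cannot be told apart.

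Cebpa, the reference of the locus, was at 31.5, 51.3 and 51.6 CPM in WT Ly6Chi. WT Ly6Clo had 18.2, 17.7 and 19.2 CPM and KO Ly6Clo 4.04, 2.89 and 2.74 CPM. The KO libraries lay below all WT libraries. The log2 fold change of KO Ly6Clo against WT Ly6Clo was -2.51 with an edgeR adjusted p of 0.015.

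Most of the neighbourhood was silent or scarcely read in these cells, as were most genes of the tables. Over all genes, 18341 of 55487 passed the filter on low counts. Of the 57 members, 26 passed it and entered the test, a larger share. Of these, 14 were protein-coding, and 15 lay on the lower and 11 on the higher side. The 31 others comprise 11 with at least 10 counts in some library, 11 with 1 to 9 counts at most and 9 at 0 in all libraries. None of the 10 lincRNAs entered the test, against 6 of the 7 antisense RNAs. These 6 share between 4 and 2696 counted bases with a gene of the other strand, and whether counting used strand is not given here. The stretch next to Cebpa on the higher side was among the quiet ones. Within 250 kb, 2 of 8 members there were tested, against 5 of 10 on the lower side. On the higher side, the first members are the lincRNA Gm35665 at 15.8 kb, with 5 counts, all in KO Ly6Clo replicate 1, Slc7a10 at 67.1 kb, a neutral amino acid transporter, with 2 counts in all, and Lrp3 at 80.7 kb, a receptor-like membrane protein, with 26. No gene of the tables has its lowest coordinate between those of Gm35665 and Slc7a10, the interval in which the name of the +37 element places it. The nearest tested gene on that side is Gpatch1 at 157.2 kb.

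**Figure D1:**
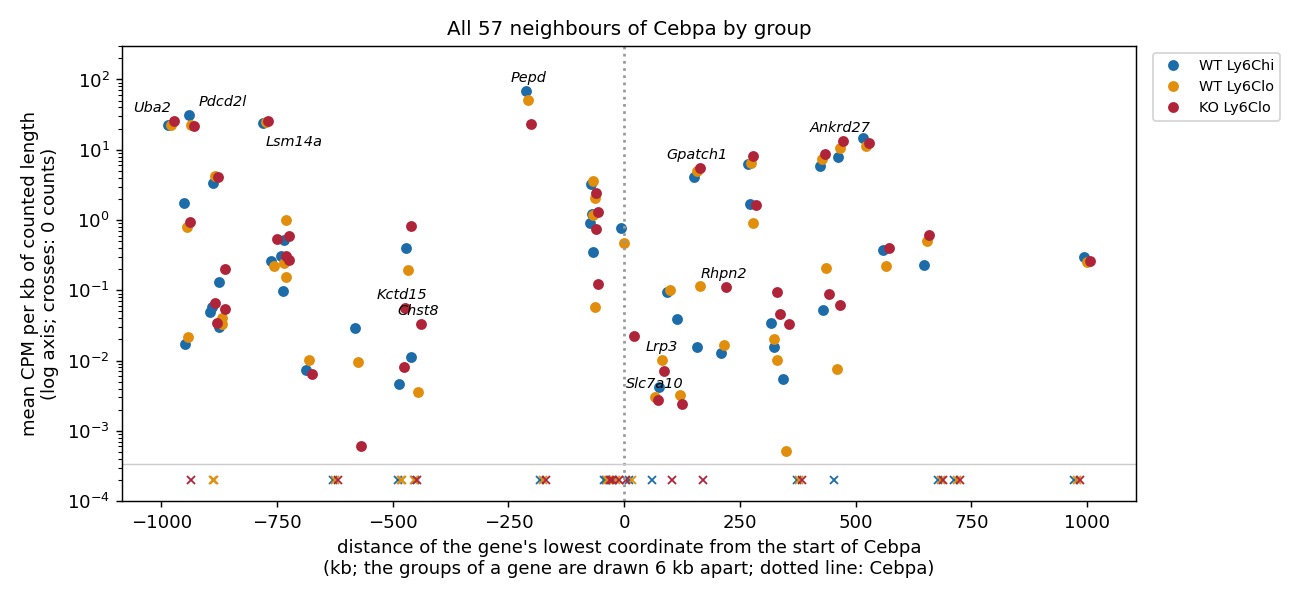
Mean level of each of the 57 members in each group (CPM per kb of counted length, log axis) against the distance of its lowest coordinate from the start of Cebpa in kb, with groups drawn 6 kb apart and crosses for groups with 0 counts. Pepd, at -206.9 kb, stands highest in both WT groups, and the members nearest to Cebpa on the higher side stay under 0.2 CPM per kb up to Gpatch1.

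The deletion was first set against WT cells of the same subset. Among the 26 tested members, edgeR called 0 in KO Ly6Clo against WT Ly6Clo at an adjusted p under 0.05, where the background was 0.0709% of the 18341 genes tested (13 genes). At an unadjusted p under 0.05 there were 3 members, Pepd, Gm45091 and Gm12758, or 11.5%, beside 6.16% of all genes. DESeq2 called the same 3 members, within 277 genes called in all (1.51%). Limma-voom called 0, within 16 genes (0.0872%). Gm45091, at 0 in KO Ly6Clo, and Gm12758, at 0 in WT Ly6Clo, passed the filter through the libraries of the other groups. The groups did not overlap for 1 member that was higher in KO (Gm12758) and 2 that were lower (Pepd and Gm45091), which is 11.5% of members beside 10.9% of all genes, a share near the background. The log2 fold change was positive for 17 members and negative for 9, with a median of 0.16 against 0.03 over all genes tested. Its median size was 0.59 over all tested members, 0.27 over the 14 protein-coding ones and 0.31 over all genes tested.

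Pepd, on the 5′ side, had the highest level per kb of the tested protein-coding members in both WT groups. It encodes prolidase, the peptidase that splits dipeptides ending in proline or hydroxyproline, a late step in the breakdown of collagen. The gene (ENSMUSG00000063931) covers chr7:34912379-35044708 on the plus strand, so its 3′ end lies between its own promoter and Cebpa. Its promoter is shown because Pepd carries the clearest difference of the neighbourhood, from RefSeq on GRCm38.p6, chr7:34912157-34912456, plus strand, with the 50 bases from the transcription start on in capitals.

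Pepd promoter: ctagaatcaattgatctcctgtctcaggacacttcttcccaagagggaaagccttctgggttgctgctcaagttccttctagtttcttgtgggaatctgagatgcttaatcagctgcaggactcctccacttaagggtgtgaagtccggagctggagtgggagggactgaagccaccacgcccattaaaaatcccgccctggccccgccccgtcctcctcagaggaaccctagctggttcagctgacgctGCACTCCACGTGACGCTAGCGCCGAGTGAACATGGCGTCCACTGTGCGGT

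Pepd was at 208.3, 211.2 and 205.5 CPM in WT Ly6Chi. WT Ly6Clo had 164.2, 206.6 and 107.9 CPM and KO Ly6Clo 76.9, 81.2 and 59.96 CPM. Every KO library lay below every WT library, the 3 WT Ly6Chi libraries were close together, and WT Ly6Clo spread widely. The group means were 208.3 ± 2.84, 159.6 ± 49.5 and 72.7 ± 11.2 CPM (SD, n = 3). The KO level was thus 45.6% of that in WT Ly6Clo, a log2 fold change of -1.13 ± 0.24 (SE) with an edgeR p of 0.000952 and an adjusted p of 0.23. The difference did not pass the test over all genes, in which Pepd ranked 75th of 18341 by p. Over 17 alternative fits the value stayed between -1.36 and -0.89, and the adjusted p between 0.0024 and 0.6. DESeq2 alone called it. An exact permutation test of 3 against 3 libraries cannot give a p below 0.1.

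Against WT Ly6Chi, Pepd fell in KO Ly6Clo to 34.9%. The log2 fold change was -1.52 ± 0.24 (SE), with an edgeR adjusted p of 0.009, and it was called in 17 of 17 alternatives, with a log2 fold change of -1.62 to -1.40 when single libraries were left out. The contrast differs in both subset and genotype, which cannot be told apart in it. The mean of WT Ly6Clo lay between those of the other groups, with a log2 fold change of -0.38 ± 0.23 (SE) against WT Ly6Chi and an edgeR adjusted p of 0.44. The 2 comparisons of KO Ly6Clo share their KO libraries. File names carry library numbers in 2 runs of 5 and 4 libraries, and with a term for the run the log2 fold changes of KO Ly6Clo were -1.11 against WT Ly6Clo and -1.67 against WT Ly6Chi. Summed neutrophil markers, which separate Ly6Chi from Ly6Clo libraries as well, were 171 to 362 CPM in WT Ly6Chi. They were 2.77 to 7.34 CPM in WT Ly6Clo and 2.55 to 25.9 in KO Ly6Clo. S100a8 and S100a9 led the sum, with means of 113 and 120 CPM in WT Ly6Chi, and Mpo and Elane were highest there too. Ly6g was at 0.213, 0.222 and 0.316 CPM in WT Ly6Chi, WT Ly6Clo and KO Ly6Clo, and Retnlg at 0.304, 0.115 and 0.709. The part of these markers in the Pepd difference was not tested.

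Per kb of counted length, Pepd had the highest level of the 14 tested protein-coding members in WT Ly6Chi, at 67.6 ± 0.922 CPM per kb (SD, n = 3), and in WT Ly6Clo, at 51.8 ± 16.1. In KO Ly6Clo it was at 23.6 ± 3.64, behind Lsm14a at 25.9 ± 2.51 and Uba2 at 25.5 ± 5.07 and ahead of Pdcd2l at 22.0 ± 4.18. These 4 neighbours in the order overlap in KO Ly6Clo, whereas in WT Ly6Clo the lowest Pepd library (35.0 CPM per kb) was above the highest library of each of the other 3.

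**Figure D2:**
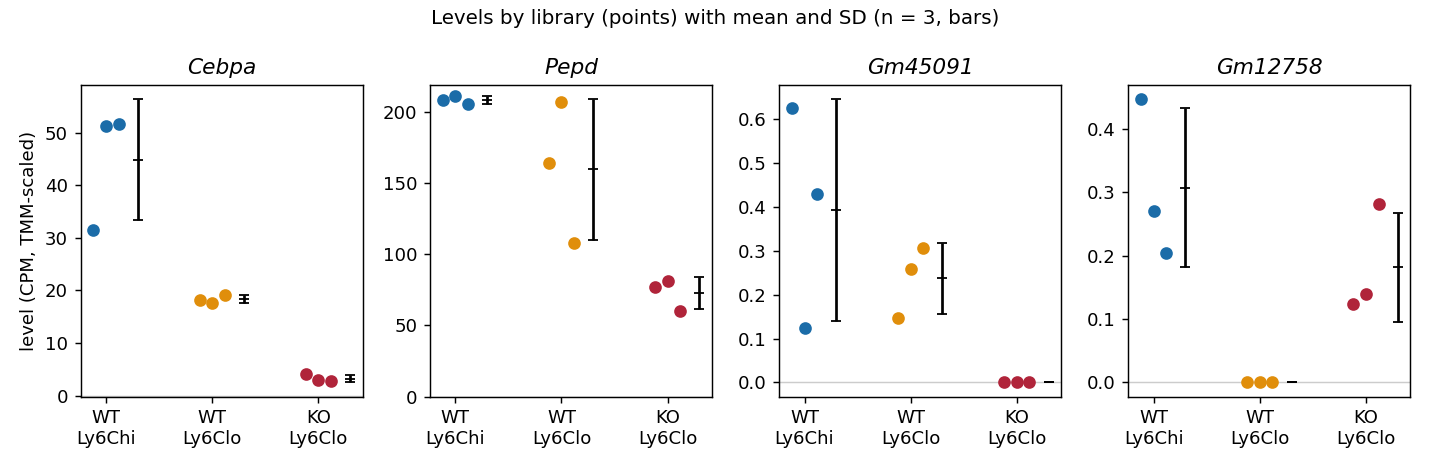
Level of Cebpa, Pepd, Gm45091 and Gm12758 in CPM in each library (points), by group, with the mean and SD (n = 3). KO Ly6Clo libraries lie below all WT libraries for Cebpa, Pepd and Gm45091, and Gm12758 is at 0 in the 3 WT Ly6Clo libraries.

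The member closest to Cebpa was Gm45091, an annotated antisense RNA at chr7:35118044-35119605 on the minus strand. It starts inside the Cebpa exon and runs away from it. Its first exon, chr7:35119555-35119605, lies wholly in the Cebpa exon, and its other exon, chr7:35118044-35118496, with 453 of the 504 bases, shares none with it. The start of the transcript is shown because a read on the shared bases could be counted for either gene. It is given as transcribed, spliced, the first 91 bases of the GENCODE M21 transcript on GRCm38 (chr7:35118457-35119605, minus strand), with the 51 shared bases in capitals.

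Gm45091 transcript start: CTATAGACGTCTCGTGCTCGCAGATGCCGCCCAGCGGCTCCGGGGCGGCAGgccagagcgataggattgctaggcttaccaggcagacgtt

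Gm45091 was at 0.63, 0.13 and 0.43 CPM in WT Ly6Chi, 0.15, 0.26 and 0.31 CPM in WT Ly6Clo and 0 in the 3 KO Ly6Clo libraries. That is 62, 63 and 0 counts. The level in KO Ly6Clo was at least 9.81-fold lower than in WT Ly6Chi and at least 5.91-fold lower than in WT Ly6Clo, taking 3 counts in each KO library as the floor, which covers counting error only. With 0 counts in KO Ly6Clo, Gm45091 entered the test through WT libraries alone. It missed the filter in the fits of KO Ly6Clo with a single WT group. Against WT Ly6Chi edgeR called it lower, the direction this entry favoured, with an adjusted p of 0.026. The call was kept in 4 of 15 alternatives, with adjusted p from 0.00051 to 0.1, and of the fits that left out a single library only that without KO Ly6Clo replicate 1 kept it. Against WT Ly6Clo the edgeR adjusted p was 0.25 and that of DESeq2 0.013. The sources used here do not say whether counting used strand or where reads on shared bases were put. Cebpa, with which it shares these bases, moved in the same direction, and the share of Gm45091 counts that came from Cebpa transcripts was not tested.

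Further along the 5′ side, 3 members lie within the span of Cebpg, the gene of another C/EBP protein. Gm45094 was at 2.0 ± 0.426, 2.18 ± 0.78 and 1.5 ± 0.247 CPM in WT Ly6Chi, WT Ly6Clo and KO Ly6Clo (SD, n = 3). Gm44836, a sense-intronic RNA, and Gm45095, an antisense RNA, were between 0.0878 and 0.709 CPM in all 9 libraries. They share 73 and 4 counted bases with Cebpg, and their groups overlapped in each comparison. With Pepd and Gm45091 these are the 5 tested members within 250 kb on the lower side. All 5 had a negative log2 fold change in KO Ly6Clo against WT Ly6Clo, with a median of -0.69, which is the same with Gm45091 set to its bound. Besides Pepd, at -1.13, the values were -0.54 for Gm45094, -0.64 for Gm44836 and -0.69 for Gm45095, each with an edgeR adjusted p of 1. Cebpg, whose span holds these 3, had a log2 fold change of -0.62 ± 0.25 (SE) with an edgeR adjusted p of 0.74, and the share of their counts that came from Cebpg transcripts was not tested. In WT Ly6Clo against WT Ly6Chi, 3 of the 5 were positive and the median was 0.13.

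On the higher side, 10 of the 11 tested members had a positive log2 fold change in KO Ly6Clo against WT Ly6Clo, and 0 passed at an adjusted or at an unadjusted p under 0.05 by edgeR. DESeq2 and limma-voom called 0 of them too. The median was 0.31, and B230322F03Rik was the exception at -1.18 ± 1.89 (SE). Beyond 250 kb on the lower side, most values were positive too, at 1 of 1 tested member up to 500 kb and 6 of 9 from 500 to 1000 kb. Over all genes tested, 9655 values were positive and 8681 negative. With single libraries left out, 4 to 5 of the 5 on the lower side stayed negative and 7 to 10 of the 11 on the higher side positive, and limma-voom gave 8 positive of the 11. Of the 9 negative values among the members, 5 thus lay within 250 kb on the lower side, where 4 of the 5 members lie in the span of Cebpg or share bases with Cebpa. For 5 of the 9 protein-coding members of the higher side the standard error was larger than the difference, and neither the sides nor the distances were tested against each other.

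**Figure D3:**
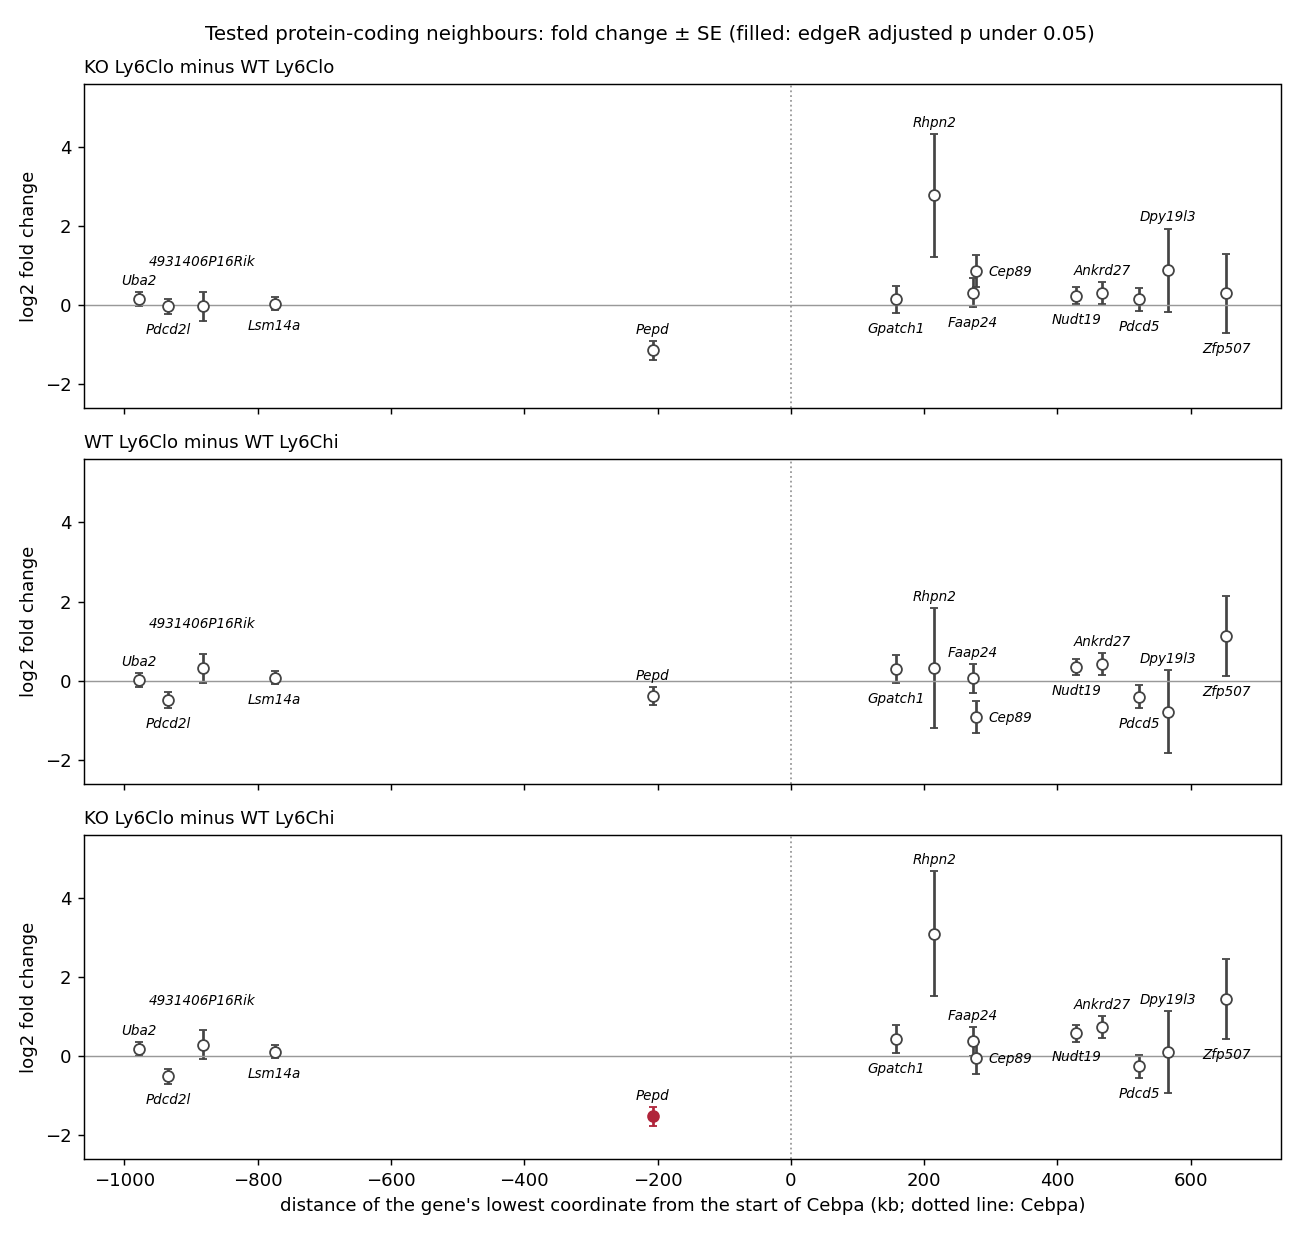
Log2 fold change ± SE (edgeR, 9 libraries) of the 14 tested protein-coding members against distance from the start of Cebpa in kb, 1 panel per comparison, filled where the adjusted p was under 0.05. Pepd is the lowest point of the upper and lower panels, at -1.13 and -1.52, and is the single filled one.

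The second question was how the neighbourhood differs between the subsets of WT mice. In WT Ly6Clo against WT Ly6Chi, edgeR called 1 of 26 members, Gm12758, lower, beside a background of 3.51% of all genes (643). Gm12758, at 0 in WT Ly6Clo, passed the filter through the libraries of the other groups, which favoured this direction. At an unadjusted p under 0.05 there were 2, Gm12758 and Pdcd2l, or 7.69%, beside 18.2% of all genes. The groups did not overlap for 3 members, Pdcd2l, Gm12758 and Cep89, each lower in WT Ly6Clo, which is 11.5% beside 28.3% of all genes. The share of members was below the background on both counts, with a median log2 fold change of 0.07 against -0.0042 over all genes tested. Limma-voom called 1 member, beside 4.38% of all genes (803), and DESeq2 0, beside 10.7% (1968).

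Gm12758 is an antisense RNA far from Cebpa, at chr7:34234377-34240207 on the plus strand, 884.9 kb away. It shares 2696 counted bases with 4931406P16Rik, also named Garre1, which is read from the other strand. It was at 0.45, 0.27 and 0.20 CPM in WT Ly6Chi, 0 in the 3 WT Ly6Clo libraries and 0.12, 0.14 and 0.28 CPM in KO Ly6Clo, that is, 48, 0 and 44 counts. WT Ly6Clo was thus at least 6.98-fold lower than WT Ly6Chi, and KO Ly6Clo at least 4.13-fold higher than WT Ly6Clo, with the floor of 3 counts in each library. With 0 counts in WT Ly6Clo, Gm12758 entered the test through the libraries of the other groups, which favoured a lower level in WT Ly6Clo. The edgeR adjusted p was 0.032 in WT Ly6Clo against WT Ly6Chi. It ran from 0.032 to 0.12 over the alternatives and from 0.052 to 0.12 with any 1 of the 9 libraries left out, so no such fit kept the call, and DESeq2 gave no adjusted p there. In KO Ly6Clo against WT Ly6Clo the adjusted p was 0.25 by edgeR and 0.031 by DESeq2. The 2 comparisons share the WT Ly6Clo libraries, which are the ones at 0. The overlapping 4931406P16Rik, an effector of Rac proteins, was at 15.9, 34.3 and 32.7 CPM, 26.8, 51.7 and 24.8 CPM, and 30.4, 38.8 and 32.7 CPM in the same order, and its groups overlapped.

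The third comparison, KO Ly6Clo against WT Ly6Chi, joins subset and genotype. EdgeR called 2 of 26 members, Pepd and Gm45091, both lower, beside 4.52% of all genes (829). Of these members, Gm45091 was at 0 in KO Ly6Clo and passed the filter through WT libraries alone. At an unadjusted p under 0.05 there were 5, the same 2 with Pdcd2l, Nudt19 and Ankrd27, or 19.2%, beside 16.9% of all genes. The groups did not overlap for 5 members, 2 higher and 3 lower in KO Ly6Clo, or 19.2% beside 22.9% of all genes. Both shares are near the background. DESeq2 called 3 members (Pepd, Gm45091 and Nudt19), beside 10.6% of all genes (1950), and limma-voom 1 (Pepd), beside 4.95% (908).

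Among the enzymes, Nudt19, which hydrolyses coenzyme A in peroxisomes, lies at 427.9 kb. It was at 15.1, 13.5 and 17.9 CPM in WT Ly6Chi. WT Ly6Clo had 22.9, 17.1 and 19.2 CPM and KO Ly6Clo 24.1, 23.1 and 22.7 CPM. All KO libraries were above all WT Ly6Chi libraries and overlapped with WT Ly6Clo. The log2 fold change against WT Ly6Chi was 0.59 ± 0.21 (SE) with an edgeR adjusted p of 0.2. It shares 938 counted bases with the antisense RNA B230322F03Rik. Dpy19l3, a mannosyltransferase of the endoplasmic reticulum, ranged from 0.608 to 8.78 CPM in WT Ly6Chi, 0.935 to 4.74 in WT Ly6Clo and 0.745 to 6.83 in KO Ly6Clo, a spread within groups that is wider than the difference between their means.

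Ankrd27, an effector of Rab proteins that sorts cargo from endosomes, lies at 467.0 kb. It was at 35.0, 53.5 and 54.1 CPM in WT Ly6Chi. WT Ly6Clo had 46.2, 74.2 and 71.3 CPM and KO Ly6Clo 55.8, 96.4 and 86.1 CPM. Replicate 1 was the lowest library in each group, and the KO libraries lay above those of WT Ly6Chi. The log2 fold change of KO Ly6Clo against WT Ly6Chi was 0.74 ± 0.28 (SE) with an edgeR adjusted p of 0.22. Rhpn2, at 214.9 kb, shares 138 counted bases with Faap24, which is read from the other strand. Rhpn2 had 175 counts in all, of which 113 were in KO Ly6Clo replicate 1. Its level was at most 0.263 CPM in any other library and 1.75 CPM in KO Ly6Clo replicate 1. Its log2 fold change of KO Ly6Clo against WT Ly6Clo was 2.77 ± 1.56 (SE), and without that library 0.84 ± 1.7, with edgeR adjusted p of 0.95 and 0.99.

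The genes of RNA handling and ribosome assembly lie on both sides. Pdcd2l, a PDCD2 family protein that takes part in making the small ribosomal subunit, at -934.8 kb, was at 44.6, 55.6 and 45.1 CPM in WT Ly6Chi. WT Ly6Clo had 37.4, 34.0 and 32.7 CPM and KO Ly6Clo 40.1, 27.2 and 35.0 CPM. Both Ly6Clo groups lay below WT Ly6Chi and overlapped with each other. The log2 fold changes were -0.48 ± 0.20 in WT Ly6Clo and -0.51 ± 0.20 in KO Ly6Clo (SE), against the same WT Ly6Chi libraries, with edgeR adjusted p of 0.24 and 0.23. Lsm14a, a component of the cytoplasmic bodies that store and silence mRNA, had overlapping groups, at 146 ± 22.4, 155 ± 6.38 and 159 ± 15.4 CPM (SD, n = 3). Gpatch1, an RNA-binding protein of the splicing machinery, was at 21.9, 9.53 and 15.1 CPM in WT Ly6Chi. WT Ly6Clo had 14.7, 21.4 and 20.9 CPM and KO Ly6Clo 18.8, 16.6 and 27.8 CPM. Its groups overlapped in each comparison.

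Of the genes in protein modification, cell death and transcription, Uba2, a subunit of the enzyme that activates SUMO, was at 136 ± 13.6, 137 ± 3.76 and 154 ± 30.6 CPM in WT Ly6Chi, WT Ly6Clo and KO Ly6Clo (SD, n = 3). Pdcd5, a protein linked to apoptosis, was at 36.8 ± 11.2, 27.9 ± 3.81 and 30.9 ± 8.80 CPM, and the zinc finger gene Zfp507 at 1.87 ± 1.81, 4.13 ± 1.74 and 5.10 ± 3.96 CPM. The groups of all 3 overlapped in each comparison, and none passed at an unadjusted p under 0.05 by edgeR.

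Faap24, of the Fanconi anaemia DNA repair complex, and Cep89, of the centriole appendages, start head to head at 272.9 and 277.7 kb (lowest coordinates), with RefSeq starts 296 bases apart. The Cep89 promoter is shown because 205 of its 300 bases also lie in the promoter window of Faap24, so that the 2 genes share most of this sequence. It is RefSeq's on GRCm38.p6, chr7:35396813-35397112, plus strand, with the shared bases, chr7:35396813-35397017, in capitals.

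Cep89 promoter: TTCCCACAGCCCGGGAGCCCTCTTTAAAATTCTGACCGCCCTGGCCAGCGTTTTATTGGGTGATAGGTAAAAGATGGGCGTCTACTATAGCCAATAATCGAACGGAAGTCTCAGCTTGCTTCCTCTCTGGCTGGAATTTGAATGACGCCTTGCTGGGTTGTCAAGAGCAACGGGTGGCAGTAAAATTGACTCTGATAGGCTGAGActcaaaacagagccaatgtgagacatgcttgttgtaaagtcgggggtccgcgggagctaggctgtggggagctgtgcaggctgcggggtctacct

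Cep89 was at 7.39, 10.5 and 7.94 CPM in WT Ly6Chi. WT Ly6Clo had 5.34, 5.09 and 3.28 CPM and KO Ly6Clo 4.44, 10.9 and 9.74 CPM. WT Ly6Clo lay below WT Ly6Chi without overlap, and KO replicate 1 lay among the WT Ly6Clo libraries while the other KO libraries lay above them. The log2 fold changes were -0.91 ± 0.41 in WT Ly6Clo against WT Ly6Chi and 0.87 ± 0.41 in KO Ly6Clo against WT Ly6Clo (SE), with edgeR adjusted p of 0.28 and 0.84, and they share the WT Ly6Clo libraries. Faap24 had values of 0.06 ± 0.37 and 0.31 ± 0.37 (SE) in the same comparisons, with group means of 12.3 ± 1.86, 12.8 ± 5.61 and 15.9 ± 4.66 CPM (SD, n = 3). Whether the 2 genes differ in response was not tested.

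Promoter sequences of 300 bases were matched for 26 of the 57 members by symbol, giving 33 promoters. The palindrome TTGCGCAA, a C/EBP consensus, was in 0 of them on either strand, beside 0.183% of all 32851 promoters. The looser TTGCNNAA, which includes it, was in 2 of the 33 promoters, those of Gm45095 and Pdcd5, beside 10.8% of all promoters. CCAAT was in 7 of the 33, those of Ankrd27, Cep89, Chst8, Dpy19l3, E130304I02Rik, Faap24 and Pdcd2l, beside 37.4% of all promoters. The windows of Cep89 and Faap24 share 205 bases. The Pepd promoter held none of the 3 motifs. These matches are letters in these windows and say nothing of binding.

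Among the 8 protein-coding members that missed the filter, counts were few and often gathered in 1 library. Kctd15, a BTB domain protein, had 39 of its 50 counts in KO Ly6Clo replicate 1, Chst8, a sulfotransferase, 42 of 50, Slc7a9, a cystine transporter, 21 of 40, and Tdrd12, a germ line gene of the piRNA pathway, 21 of 37. Rgs9bp, which anchors a regulator of G protein signalling in photoreceptors, had 170 of its 194 counts in KO Ly6Clo replicate 2 and 20 in WT Ly6Clo replicate 2, and Lrp3 had 13 of 26 in the latter. Gm6096 had 14 counts in all. Of the members of other types with at least 10 counts in a library, BC060293 had 83 counts, Gm12774 77, Gm45096 37, Gm18254 32, of which 22 were in KO Ly6Clo replicate 1, and ENSMUSG00000118454, whose type is not given here, 14, of which 11 were in WT Ly6Chi replicate 2. None of these members was tested.

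**Figure D4:**
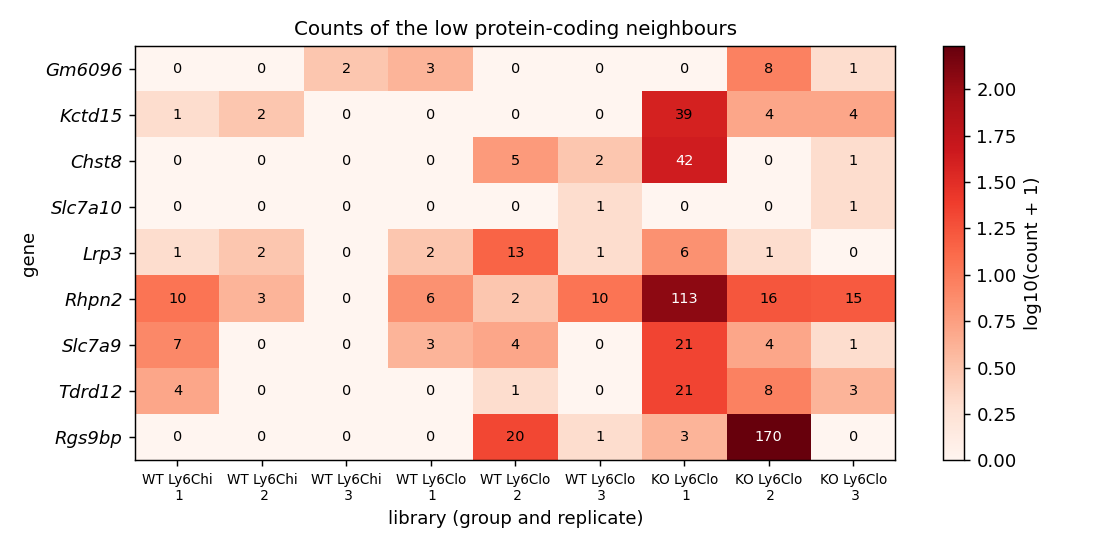
Counts of the protein-coding members with few reads in each of the 9 libraries, coloured by log10(count + 1), with the count printed in each cell. KO Ly6Clo replicate 1 holds most counts of Kctd15, Chst8 and Rhpn2, and KO Ly6Clo replicate 2 holds 170 of the 194 counts of Rgs9bp.

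At the edges of the window, Uba2 at -978.6 kb and Rpl17-ps9, a pseudogene at 999.0 kb with 89 counts, lie just inside. Wtip at -1009.8 kb, with 141 counts and 0.543 ± 0.576, 0.0235 ± 0.00834 and 0.258 ± 0.225 CPM in WT Ly6Chi, WT Ly6Clo and KO Ly6Clo (SD, n = 3), and the pseudogene Gm9211 at 1115.0 kb, with 11 counts, lie just outside.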

How the data were processed

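RNA of 9 libraries of sorted splenic monocytes was analysed, 3 per group, made from 10 ng of total RNA with 12 to 15 PCR cycles and read as pairs of 150 bases, per the labels' protocols. The authors deposited 1 table per library. Per the file headers, its counts are raw reads of each gene, beside the gene's counted length. The CPM, FPKM and TPM deposited beside the counts equal the values recomputed from the counts (largest difference 6e-11) and were not tested. Tools named in the submitters' processing notes, without roles, are featureCounts 1.4.6-p5 of Subread, STAR 2.5.1a, edgeR, limma, bcl2fastq and Salmon 0.8.2, with GRCm38 (mm10). The assignment of reads shared by genes, and the use of strand, are not given in the sources used here.

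EdgeR 4.0.16 (R 4.3.3) was used on the counts. Its filterByExpr, with a minimum count of 10, kept 18341 genes. The fit used TMM scaling, 1 term per group over the 9 libraries, the quasi-likelihood test and Benjamini-Hochberg adjustment over all genes. A gene was called at an adjusted p under 0.05. The steps were run on simulated data with a spread capped below the common spread of these data, and with changes only in genes above 1 CPM. That run does not cover genes at a few counts. Symbols and gene types came from GENCODE M21, whose coordinates were those of the tables for 59 of the 60 IDs of the window, and promoters from RefSeq on GRCm38.p6. Alternatives were RLE scaling, no filter, 1 CPM in 3 libraries, DESeq2 1.42.0, limma-voom (limma 3.58.1), a fit of only the 2 groups compared, a replicate block, a term for the run of library numbers, each library left out, and, for the counts of members, 3 other member rules.

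Named were all tested protein-coding members, other members at an unadjusted p under 0.05, and untested ones with at least 10 counts in a library. Gm45094, Gm44836, Gm45095, B230322F03Rik, Gm6096, Gm35665, Slc7a10, E130304I02Rik and the genes at the edges of the window were named after their values were seen. Members, gene lists and tests were chosen with earlier results of these data known.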

Additional observations from a re-analysis of the deposited data

How the results depend on the processing

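The number of members called in KO Ly6Clo against WT Ly6Clo was 0, and 3 with DESeq2, which called 277 genes in all against 13. In WT Ly6Clo against WT Ly6Chi it was 1, and 0 with no filter on low counts, with the filter of 1 CPM in 3 libraries, with DESeq2, with the replicate block, with the run of library numbers as a term, in a window of 500 kb and over protein-coding members alone. It was 0 to 0 with single libraries left out. In KO Ly6Clo against WT Ly6Chi it was 2, and 1 with the filter of 1 CPM in 3 libraries, limma-voom, only the 2 groups compared, the run of library numbers as a term, and protein-coding members alone, 3 with DESeq2, and 1 to 2 with single libraries left out. Pepd was called there in each of these settings. The 1 CPM filter and the 2 narrower member rules leave out Gm12758, Gm45091 or both by construction, as the fit of only KO Ly6Clo and WT Ly6Chi leaves out Gm45091, which missed its filter, and the cause of the other changes was not tested.

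No gene that was called changed sign. Reversals of uncalled genes were, in KO Ly6Clo against WT Ly6Clo, 0.0411 for 4931406P16Rik with the replicate block and -0.25 for Zfp507 with limma-voom. In WT Ly6Clo against WT Ly6Chi they were -0.0074 for Uba2 with the 1 CPM filter, -0.0907 for Rhpn2 and -0.11 for Faap24 with limma-voom, -0.0286 for Faap24 with the replicate block and 0.0841 for Dpy19l3 with the run term. In KO Ly6Clo against WT Ly6Chi the value of Cep89 with no filter was 0.0119. With single libraries left out, the ranges that crossed 0 in KO Ly6Clo against WT Ly6Clo were -0.17 to 0.0947 for Pdcd2l, -0.22 to 0.41 for 4931406P16Rik, -0.053 to 0.0945 for Lsm14a, -0.11 to 0.27 for Gpatch1, -0.0616 to 0.34 for Pdcd5 and -0.35 to 0.79 for Zfp507. In WT Ly6Clo against WT Ly6Chi they were -0.045 to 0.0874 for Uba2, -0.10 to 0.53 for 4931406P16Rik, -0.0306 to 0.19 for Lsm14a, -0.44 to 1.66 for Rhpn2, -0.34 to 0.28 for Faap24 and -1.63 to 0.32 for Dpy19l3. In KO Ly6Clo against WT Ly6Chi they were -0.0014 to 0.22 for Lsm14a, -0.30 to 0.25 for Cep89, -0.46 to 0.0109 for Pdcd5 and -0.41 to 1.21 for Dpy19l3.

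Of 9 pairs of libraries with the same replicate number, 5 had deviations from their group means that correlated above 0.1 (range 0.00478 to 0.277). The numbers were not taken to pair the libraries. Replicate 1 libraries correlated with each other at 0.198, 0.213 and 0.277, and with other numbers at -0.22 to -0.057. Replicates 2 and 3 correlated across numbers at 0.0275 to 0.103. What replicate 1 libraries have in common was not tested. With the replicate block, 0, 0 and 2 members were called in the 3 comparisons in the order above, the last 2 being Pepd and Ankrd27 (adjusted p 0.022), and the value of Pepd in KO Ly6Clo against WT Ly6Clo was -1.11 with an adjusted p of 0.17. The depth limits the members at a few counts: at 3 counts in a library a level of 0.0199 to 0.0626 CPM is not told from 0.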

Other observations

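Low genes were read more often in KO Ly6Clo replicate 1 than in the other libraries. Of 35630 genes with a mean under 0.1 CPM in the other 8 libraries, 1253 (3.52%) reached at least 0.3 CPM in it, against 0.648% to 1.75% for the same count made in each of the other libraries. Among the members, 6 of 30 did so in that library (BC060293, Kctd15, Chst8, Gm18254, Slc7a9 and Tdrd12), and 0 to 2 in any other. These 6 lie on both sides of Cebpa, from 869.0 kb below to 349.8 kb above its start.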
